A study of Mus musculus with 6 samples.

Results

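The miR-200 microRNAs hold many messenger RNAs in check, and 33 genes described in the literature as their targets, other than the transcription factor genes Zeb1 and Zeb2, were followed here by gene name in a count table of 31319 mouse genes. All 33 were found and all 33 passed the filter on low counts. The table covers 6 poly(A) RNA-seq libraries of the main olfactory epithelium, the part of the nose where olfactory neurons sit, from male C57BL/6 mice 5 months of age. There were 3 libraries from mice with miR-200b/a knocked down (KD-1 to KD-3) and 3 from the group labelled NC (NC-1 to NC-3), whose count columns are headed as controls. Values of a group are listed in the order of these numbers. The sources used here do not give how the knockdown was made, in which cells, or what the NC mice received. Whether a library stands for a single mouse is also not stated, and p-values therefore reflect only how far these libraries spread, which may be technical.

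A microRNA guides an Argonaute protein to a messenger RNA by pairing its seed, bases 2 to 8 from the 5′ end, with a site that usually lies in the 3′ untranslated region (UTR), and the paired message is translated less or degraded sooner. The miR-200 family is abundant in epithelia, where it is best known for holding down Zeb1 and Zeb2 and thereby keeping cells epithelial, and it is also found in the olfactory epithelium. Its other described targets include Polycomb proteins, a Notch modifier, matrix proteins and a large set of regulators of the actin cytoskeleton. Comparing KD with NC asks whether messages of those targets were more abundant where the microRNAs were lowered.

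The family carries 2 seeds that differ by a single base, and per the labels the knockdown was aimed at both, since miR-200b has one and miR-200a the other. The mature sequences below are from RefSeq (GRCm38.p6), 5′ to 3′, with the seed in capitals. They are shown because every target site below is the reverse complement of one of these seeds.
miR-200b-3p: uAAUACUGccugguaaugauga
miR-200c-3p: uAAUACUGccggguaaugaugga
miR-429-3p: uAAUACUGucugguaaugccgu
miR-200a-3p: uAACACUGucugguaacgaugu
miR-141-3p: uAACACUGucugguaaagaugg
The genes of miR-200b, miR-200a and miR-429 lie together on chromosome 4, and those of miR-200c and miR-141 on chromosome 6. Sites for the seed shared by miR-200b, miR-200c and miR-429 read CAGTATT, and sites for the seed shared by miR-200a and miR-141 read CAGTGTT.

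The longest annotated 3′ UTR of each member was searched on its own strand for these 7-base matches (GENCODE M21, GRCm38). Of the 33 members, 26 held at least 1 match, against 30.3% of 15818 tested genes with an annotated 3′ UTR. The miR-200b type was found in 23 members (69.7%, against 15.6% of all), the miR-200a type in 13 (39.4%, against 20.6%), and both in 10 (30.3%, against 5.92%). The members' UTRs are longer than usual (median 2122 bases, against 1333). Per kilobase of UTR, however, the members also held more miR-200b type matches, 0.536 against 0.107, and more miR-200a type matches, 0.261 against 0.150. The members were described as targets often because of such sites, so this is a description of the list and no result. The 7 members with no match in that UTR were Elmo2, Rassf2, Jag1, Klhl20, Ctnnb1, Plcg1 and Keap1. Matches to fewer bases of the seed were not searched for, in these or in any other gene.

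For the members with the smallest p-values in the comparison that hold a match, 1 site each is printed below as 22 bases of the transcript, 5′ to 3′, ending at the base that faces base 1 of the microRNA. Capitals mark the seed match, which is 8 bases long where an A follows it.
Msn (miR-200b type, chrX:96167902-96167923, plus strand): cttttaatttttacCAGTATTA
Bap1 (miR-200b type, chr14:31259581-31259602, plus strand): tcgacctagcccctCAGTATTA
Crtap (miR-200b type, chr9:114375188-114375209, minus strand): ccctgaagaaaaatCAGTATTA
Fn1 (miR-200b type, chr1:71585673-71585694, minus strand): ttatcaatttttccCAGTATTt
Lfng (miR-200b type, chr5:140615107-140615128, plus strand): tgtacatattgtgaCAGTATTt
Ets1 (miR-200b type, chr9:32754989-32755010, plus strand): attaaattttgtgcCAGTATTt
Rhoa (miR-200b type, chr9:108336934-108336955, plus strand): agtcatcttgctacCAGTATTt
Sox2 (miR-200b type, chr3:34651816-34651837, plus strand): aagcaacttttgtaCAGTATTt
Rnd3 (miR-200a type, chr2:51133603-51133624, minus strand): tgcttctactacacCAGTGTTt
Mapk14 (miR-200a type, chr17:28747895-28747916, plus strand): tgtaaagccaattcCAGTGTTg
All coordinates are GRCm38. Msn held a second 8-base match of the same type, Ets1 held 3 matches of the miR-200b type in all, and Fn1 and Bap1 each held 1 of both types.

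The libraries differed in the levels of cell type markers. Total counts ran from 15704791 to 17618540. Counts of Omp, the marker of mature olfactory neurons, were 24302, 149 and 33430 in KD against 69388, 66437 and 61926 in NC, so KD-2 held almost no mature neuron message. The summed level of 12 mature neuron markers, in counts per 1000000 after TMM normalisation (CPM), was 77.1 to 4397 in KD and 7481 to 11892 in NC. Summed levels were higher in every KD than in any NC library for 8 horizontal basal cell markers (867 to 1462 CPM, against 263 to 641), 8 endothelial markers (257 to 405, against 116 to 216) and 8 macrophage markers (291 to 495, against 109 to 249.8). The same held for 8 epithelial markers, including Cdh1 and Epcam (2078 to 2826 CPM, against 1433 to 1953), all 8 of which had a log2 fold change above 0. Of 10 sustentacular and gland markers, 8 had a log2 fold change below 0. The median shift of the 10 from the NC mean, on the log2(CPM + 0.5) scale, was -0.75, -2.62 and -0.30 in KD. Their summed levels overlapped (8018 to 20509, against 11307 to 94593). Bpifb9b alone made up most of that sum in KD-2 (19066 CPM) and in NC-1 (76416 CPM), the highest library of each group. The overlap of the sums therefore says little about the other markers of that list. Summed levels of 8 fibroblast markers overlapped (2374 to 4923, against 2833 to 4819), as did those of 8 B lymphocyte and plasma cell markers (4022 to 7077, against 1061 to 5655). Col1a1 and Col1a2 had the highest levels in the fibroblast sum. Single fibroblast markers were divided, with 6 log2 fold changes above 0 and 2 below. Pdgfra stood at 113, 104 and 79.4 CPM in KD and 48.8, 66.1 and 54.6 in NC. Pdgfrb also lay wholly above NC, and the groups overlapped for the other 6 fibroblast markers. Of all marker genes in these lists and in that of immature neurons, 1 was at 0 counts in a library, Neurod1 in KD-2. The part of cell content in the members' values was not tested, and in bulk tissue fewer cells of a type and less RNA per cell cannot be told apart. The targeted loci had lower counts in every KD library, with 54, 3 and 52 against 200, 87 and 84 for Mir200a and 10, 0 and 28 against 76, 54 and 47 for Mir200b. Reads of poly(A) RNA from these loci are no measure of the mature microRNAs.

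Most of the 33 members had a fold change slightly above 0, and none passed the test. The list was chosen with earlier results of these data known, so counts and medians over it are a description. In edgeR's quasi-likelihood test, 0 of the 33 members were higher and 0 lower in KD at an adjusted p under 0.05, as was the case for 0% of the 18444 genes tested in either direction. DESeq2 also called 0 members, while it called 0.589% of the genes it tested higher and 1.17% lower. The fitted log2 fold change lay above 0 for 25 members and below 0 for 8, where 50.6% of all tested genes lay above 0. The median was 0.22 over the members and 0.01 over all tested genes. Single members ran from -0.67 for Elmo2 to 1.11 for Rnd3. At an edgeR unadjusted p under 0.05 there were 5 members higher, beside 8.7% of all tested genes, and 1 lower, beside 9.25%. The 3 KD values lay above the 3 NC values for 10 members, beside 15.3% of all tested genes, and below them for 2, beside 18.6%. In either direction the groups did not overlap for 12 of the 33, beside 33.9% of all tested genes, so that share was close to the background. In the authors' deposited table, 7 of the 33 members had an unadjusted p under 0.05, beside 14.2% of the 31241 genes with a p there, those with low counts included: Rnd3 (log2 fold change 1.08), Msn (0.96), Lfng (1.02), Fn1 (0.57), Rhoa (0.39), Elmo2 (-0.69) and Ets1 (0.87).

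**Figure D1:**
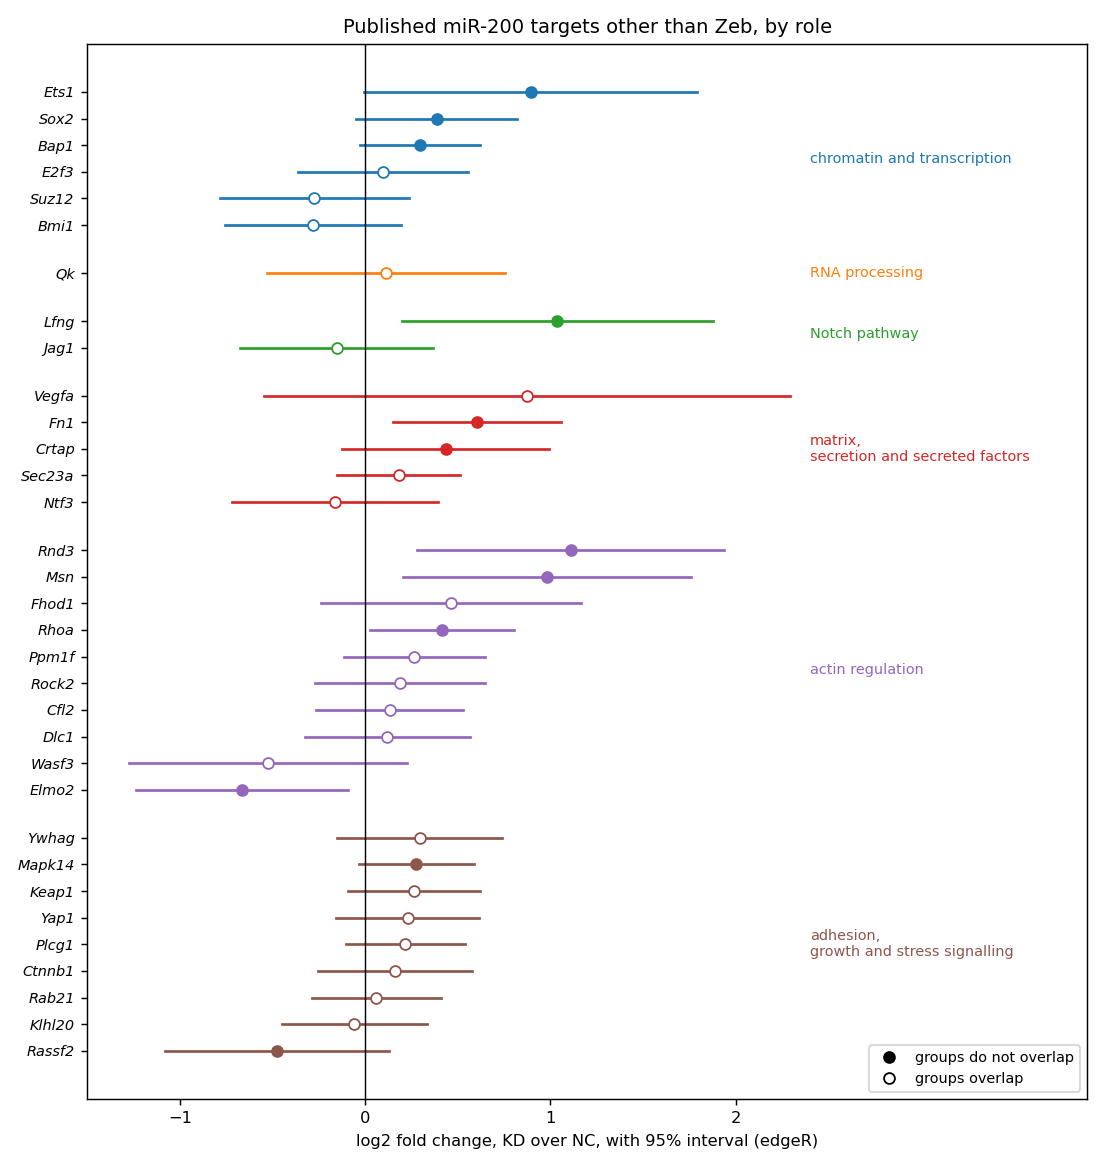
Log2 fold change of KD over NC (x axis) for each of the 33 members (y axis), grouped by role, with the 95% interval of edgeR's fit over 3 KD and 3 NC libraries; filled points mark members whose KD and NC libraries do not overlap. The highest points are Rnd3 (1.11) and Lfng (1.04), the lowest is Elmo2 (-0.67), and no member passed the test after adjustment.

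The largest block of members acts on actin and on the small GTPases that control it. Of its 10 members, 8 had a log2 fold change above 0, with a median of 0.23, and 3 had all KD libraries above all NC libraries. Rnd3, an atypical small GTPase that opposes the kinase ROCK (chromosome 2, 51130438 to 51149111), stood at 36.6, 63.9 and 28.6 CPM in KD and at 15.1, 23.9 and 20.7 in NC. KD-2 was the highest library and NC-1 the lowest. The log2 fold change was 1.11 (SE 0.342, 95% interval 0.28 to 1.94, edgeR adjusted p = 0.28). Without KD-2 and NC-1 it was 0.57.

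Msn encodes moesin, which ties the actin cortex to the cell membrane (chromosome X, 96096042 to 96168552). Its levels were 331, 391 and 305 CPM in KD and 103, 185 and 232 in NC. The groups did not overlap, and NC-1 lay far below the rest. The log2 fold change was 0.98 (SE 0.321, 95% interval 0.20 to 1.76, edgeR adjusted p = 0.28), and 0.63 without KD-2 and NC-1. Msn is abundant in endothelial cells and macrophages, whose marker sums were also higher in every KD library and lowest in NC-1, and the part of these cells in its level was not tested. Rhoa, the GTPase that drives contractile actin bundles (chromosome 9, 108306129 to 108337934), stood at 244, 282 and 223 CPM in KD and 180.1, 184 and 198 in NC. Here too KD-2 was highest and the groups did not overlap, at a smaller log2 fold change of 0.41 (SE 0.161, 95% interval 0.02 to 0.80).

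Elmo2, part of the complex that activates the GTPase Rac (chromosome 2, 165288031 to 165326479), went the other way. It stood at 66.7, 54.7 and 76.4 CPM in KD and 137, 90.2 and 86.7 in NC. KD-2 was the lowest library and NC-1 the highest, the mirror image of Rnd3, and the log2 fold change was -0.67 (SE 0.236, 95% interval -1.24 to -0.09, edgeR adjusted p = 0.28). Without KD-2 and NC-1 it was -0.28. Wasf3, a WAVE protein that starts actin branching, was likewise lowest in KD-2, at 9.64, 5.51 and 11.0 CPM in KD against 13.9, 13.6 and 10.1 in NC, and its groups overlapped.

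The remaining actin regulators also had overlapping groups. Fhod1, a formin, had a log2 fold change of 0.46, which was 0.05 without KD-2 and NC-1. Ppm1f, a phosphatase of actin regulators, had 0.27, with 24.5 ± 2.53 CPM in KD against 20.4 ± 2.26 in NC (SD, n = 3 each). Rock2, the kinase that RhoA activates, had 0.19, Cfl2, a cofilin that severs actin filaments, had 0.13, and Dlc1, which switches RhoA off, had 0.12. For Rock2, Cfl2 and Dlc1 the 95% intervals ran from -0.33 or above to 0.65 or below, so a doubling lay outside them. The log2 fold change of Cfl2 was 0.026 without KD-1 and 0.030 without NC-3, and that of Dlc1 was 0.035 without KD-2. For Rock2 it was -0.0012 without KD-1.

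Of the Notch genes, one stood apart and the other did not. Lfng encodes lunatic fringe, a glycosyltransferase that adjusts which ligands a Notch receptor answers to (chromosome 5, 140607320 to 140615545). It stood at 43.9, 57.8 and 43.7 CPM in KD and 12.6, 27.3 and 30.8 in NC. The groups did not overlap, although NC-1 was far below the other NC libraries, and the log2 fold change was 1.04 (SE 0.346, 95% interval 0.20 to 1.88, edgeR adjusted p = 0.28). Without KD-2 and NC-1 it was 0.61. Jag1, a Notch ligand with no match in its UTR, stood at 66.4, 47.7 and 64.7 CPM in KD and 80.5, 66.0 and 52.7 in NC, with a log2 fold change of -0.15 (95% interval -0.68 to 0.37).

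**Figure D2:**
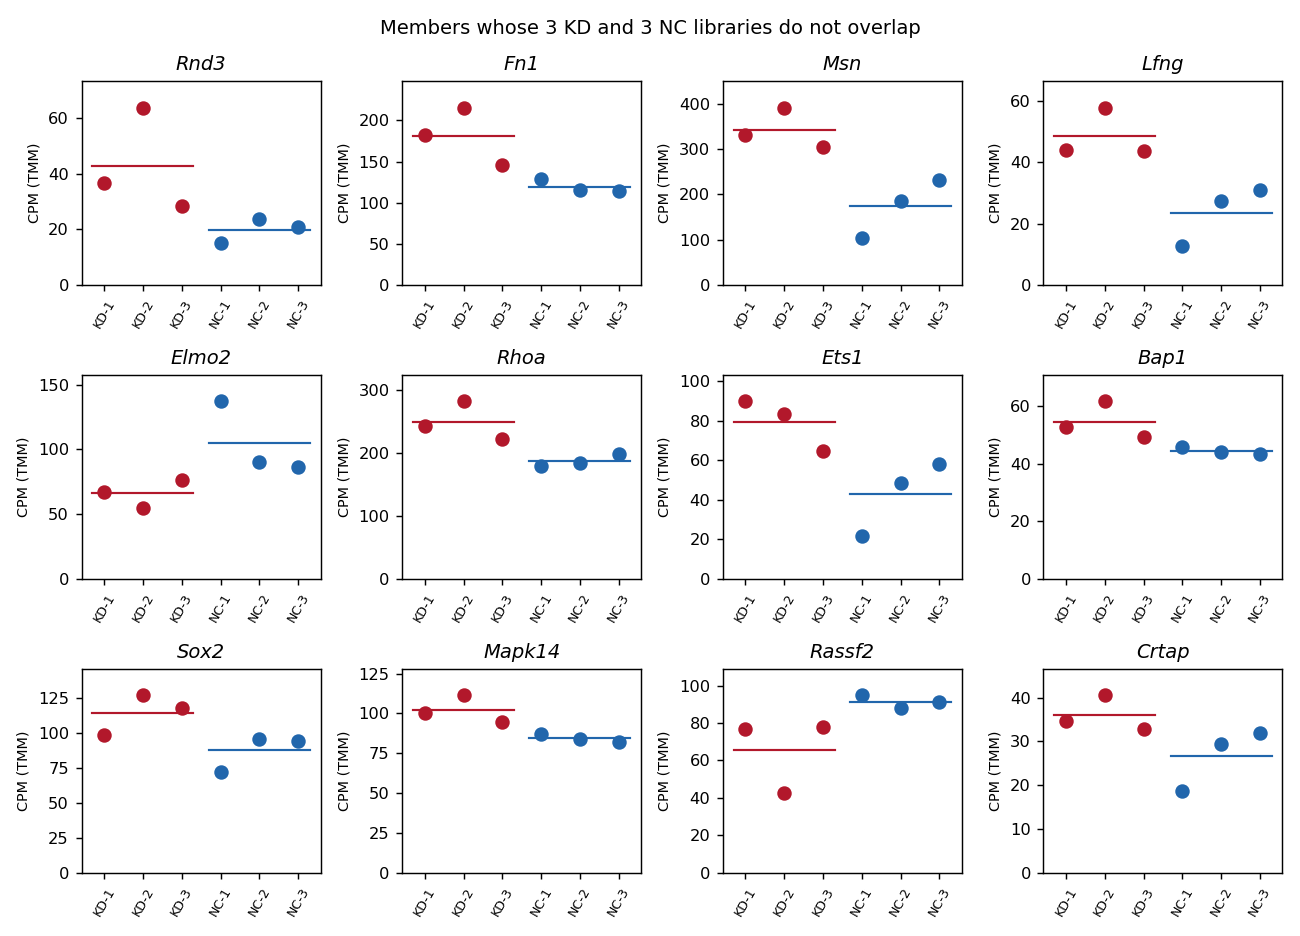
CPM after TMM normalisation (y axis, from 0, a different scale in each panel) in each library (x axis) for the 12 members whose 3 KD libraries (red) all lie above or all below the 3 NC libraries (blue), with a line at each group mean. KD lies above NC in 10 panels and below it for Elmo2 and Rassf2; KD-2 is the highest library in 9 of the 10.

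Among the matrix and secretion genes, Fn1 had the smallest p-value. It encodes fibronectin, a matrix glycoprotein of mesenchymal and wound tissue and also of blood vessels (chromosome 1, 71585520 to 71653200). Fn1 stood at 182, 215 and 145 CPM in KD and 129, 115 and 114 in NC, and the groups did not overlap. The log2 fold change was 0.60 (SE 0.187, 95% interval 0.15 to 1.06, edgeR adjusted p = 0.28), and 0.54 without KD-2 and NC-1. Unlike Rnd3 and Lfng, Fn1 was highest among the NC libraries in NC-1. The summed fibroblast markers were lowest in KD-2, the library with the most Fn1, and the summed endothelial markers were highest there. Single fibroblast markers differed: Col1a1, Col1a2, Dcn and Postn were lowest in KD-2, while Pdgfrb was highest there (138 CPM). Like Fn1, Pdgfra and Pdgfrb were higher in every KD than in any NC library. The part of either cell type in the level of Fn1 was not tested.

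Crtap, part of the enzyme complex that modifies prolines of fibrillar collagen, stood at 34.6, 40.5 and 32.9 CPM in KD and 18.6, 29.5 and 31.8 in NC, with a log2 fold change of 0.43. The gap between the groups was small, since the lowest KD library lay about 1 CPM above the highest NC library. Vegfa, the growth factor of blood vessels, varied more than any other member, at 128, 236 and 78.2 CPM in KD and 34.5, 75.1 and 132 in NC. Its log2 fold change of 0.88 had a 95% interval from -0.55 to 2.30, and it was 0.01 without KD-2 and NC-1. Sec23a, a coat protein of the vesicles that carry collagen and other cargo out of the endoplasmic reticulum, had a log2 fold change of 0.18 although its UTR held 3 matches (32.0 ± 1.11 CPM against 28.2 ± 3.24, SD, n = 3 each). Ntf3, the neurotrophin-3 gene, had few counts, 116 to 143 in KD and 158 to 169 in NC, and its groups overlapped in CPM (6.77, 9.96 and 7.88 against 10.1, 8.63 and 8.86).

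Members that act on chromatin or transcription were divided. Ets1, a transcription factor of endothelial and lymphoid cells (chromosome 9, 32636221 to 32757820), stood at 89.9, 83.7 and 64.9 CPM in KD and 21.5, 48.7 and 58.1 in NC. The groups did not overlap, and the log2 fold change was 0.89 (SE 0.371, 95% interval -0.01 to 1.79, edgeR adjusted p = 0.28). It was 0.56 without KD-2 and NC-1. Its highest library, KD-1, was not the library with the highest sum of endothelial or of B cell markers, which was KD-2, while NC-1 was the lowest for Ets1 and for both sums. Sox2, a factor of progenitor and supporting cells, stood at 98.0, 127 and 118 CPM in KD and 72.2, 95.8 and 94.3 in NC (log2 fold change 0.39, SE 0.179). Bap1, an enzyme that removes ubiquitin from histone H2A, stood at 52.7, 61.7 and 49.2 CPM in KD and 45.7, 43.9 and 43.4 in NC (log2 fold change 0.30, SE 0.133). Both had groups that did not overlap, with margins of a few CPM.

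The members of Polycomb complexes PRC1 and PRC2 lay below 0. Bmi1, of Polycomb complex PRC1, had a log2 fold change of -0.28, with 61.9 ± 9.72 CPM in KD against 75.2 ± 13.4 in NC (SD, n = 3 each). Suz12, of complex PRC2, had -0.27, with 58.5 ± 12.3 CPM against 70.7 ± 11.7. Both were lowest in KD-2 and highest in NC-1, both had overlapping groups, and without those libraries both log2 fold changes were -0.04. E2f3, a cell cycle transcription factor, had 0.10 with 4 matches in its UTR, and Qk, the RNA-binding splicing regulator quaking, had 0.11 with 6, the most of any member. Qk stood at 103, 65.8 and 67.6 CPM in KD and 86.8, 78.6 and 53.1 in NC, so its spread within each group exceeded the difference between them.

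Members in adhesion, growth and stress signalling had small fold changes. Of these 9, 7 had a log2 fold change above 0, with a median of 0.22, and none had an edgeR unadjusted p under 0.05. Mapk14, the stress kinase p38 alpha, had groups that did not overlap, at 100.3, 111 and 94.6 CPM in KD and 87.0, 83.7 and 82.2 in NC (log2 fold change 0.28, SE 0.129). Rassf2, a Ras-association protein, lay on the other side at 76.7, 42.5 and 77.9 CPM in KD against 94.9, 88.2 and 91.3 in NC, with KD-2 far below the rest (log2 fold change -0.48, SE 0.250). Without KD-2 the log2 fold change of Rassf2 was -0.22.

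Keap1, the adaptor that marks the stress factor NRF2 for degradation, missed separation narrowly, with its lowest KD library at 52.8 CPM and its highest NC library at 53.1. Its log2 fold change was 0.26 (95% interval -0.09 to 0.62). The others were 0.30 for Ywhag, a 14-3-3 protein, 0.23 for Yap1, the Hippo pathway effector, 0.22 for Plcg1, a phospholipase downstream of growth factor receptors, and 0.16 for Ctnnb1, beta-catenin (386, 424 and 359 CPM against 375, 339.8 and 330.4). Without KD-1 the log2 fold change of Yap1 was 0.11, and without NC-2 that of Ywhag was 0.18. Rab21, a GTPase of integrin traffic, had 0.06 and Klhl20, a ubiquitin ligase adaptor, had -0.06. All of these had overlapping groups.

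Levels per length set the members apart by more than KD did. The length was that of all annotated exons of a gene over all its transcripts, which can exceed that of the message present. The order below therefore depends on the annotation too. Sox2 had 2057 such bases and Rhoa 7494, and before division by length Rhoa lay above Sox2 in NC (187 against 87.4 CPM). In NC, Ctnnb1 was the most abundant at 67.1 ± 4.53 CPM per kilobase of exon (SD, n = 3), followed by Sox2 at 42.5 ± 6.41, Msn at 27.4 ± 10.4 and Rhoa at 25.0 ± 1.25. Msn and Rhoa did not differ beyond their spread in NC. At the other end lay Wasf3 at 2.42 ± 0.41, Klhl20 at 2.26 ± 0.37 and Dlc1 at 0.98 ± 0.11 CPM per kilobase, and the first pair of these did not differ beyond its spread. In KD, Ctnnb1 was at 75.0 ± 6.29, Sox2 at 55.5 ± 7.16, Msn at 54.1 ± 7.0 and Rhoa at 33.3 ± 4.01 on the same scale. The spread within the KD group of Sox2 and Msn covered the gap between them.

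Differences between libraries within a group ran through many members. KD-2, with the least neuron message, was the highest of the 6 libraries for 18 of the 33 members, where it was so for 29.6% of all tested genes, and the lowest for 7 (30.6% of all). For 11 members KD-2 was highest and NC-1 lowest (20.2% of all tested genes): Rnd3, Lfng, Msn, Vegfa, Rhoa, Sox2, Crtap, Fhod1, Ppm1f, Plcg1 and Keap1. For 6 it was the reverse (19.8% of all): Elmo2, Wasf3, Rassf2, Bmi1, Suz12 and Jag1. NC-1 is the library with the most summed mature neuron message and the least summed basal, endothelial and macrophage message. The median over the members of log2(CPM + 0.5) minus the NC mean was 0.25, 0.31 and 0.10 in KD against 0.04, 0.07 and -0.05 in NC. Leaving out KD-2 and NC-1 together, the members' median log2 fold change was 0.17, with 26 of 33 above 0. Crtap was then at 0.16, Sox2 at 0.21, Wasf3 at -0.18 and Rassf2 at -0.19. With KD-2 alone left out, the log2 fold change was 0.73 for Rnd3, 0.38 for Vegfa, 0.26 for Fhod1, -0.26 for Wasf3, -0.15 for Bmi1 and -0.14 for Suz12. With NC-1 alone left out, it was 0.57 for Ets1, 0.51 for Vegfa, 0.26 for Fhod1, 0.23 for Crtap, -0.42 for Elmo2 and -0.17 for Bmi1. Without NC-3 it was 0.11 for Sec23a, and without KD-1 it was -0.05 for Ntf3.

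**Figure D3:**
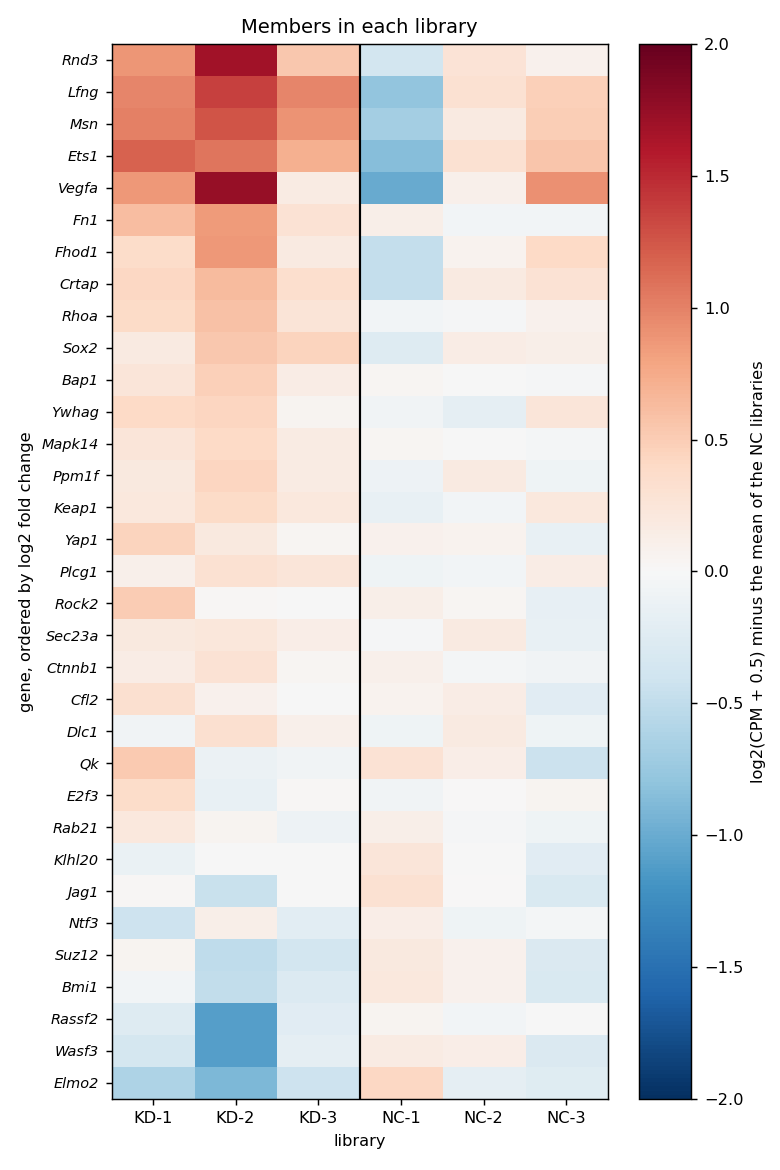
Log2(CPM + 0.5) of each member (rows, ordered by log2 fold change) in each library (columns) minus the mean of the 3 NC libraries, in red where higher and blue where lower. Most upper rows are reddest in KD-2 and bluest in NC-1, except that Ets1 is reddest in KD-1 and Fn1 lies above 0 in NC-1; the lower rows of Elmo2, Wasf3 and Rassf2 are bluest in KD-2, and the medians over all members run from -0.05 in NC-3 to 0.31 in KD-2.

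The seed matches can be set beside the fold changes. Of the 26 members with a match of either type, 22 had a log2 fold change above 0, with a median of 0.27, and of the 7 with none, 3 did, with a median of -0.06. Both members whose KD libraries lay wholly below NC, Elmo2 and Rassf2, had no match in the UTR searched. The number of matches did not order the members, however. In the longest UTR, those with 4 or more (Qk, Dlc1, E2f3, Cfl2 and Ywhag) ran from 0.10 to 0.30, while Rnd3 and Lfng had 1 each. That range holds for the longest UTR only, since over all its annotated 3′ UTRs Rnd3 (1.11) had 4 matches. Counted that way, Qk had 9 at 0.11 and Lfng 1 at 1.04. Over all tested genes with a UTR the medians lay the other way, at -0.03 for 4800 genes with a match and 0.04 for 11018 without. These are counts and medians with no test, and a match of these letters is not shown to be a working site.

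**Figure D4:**
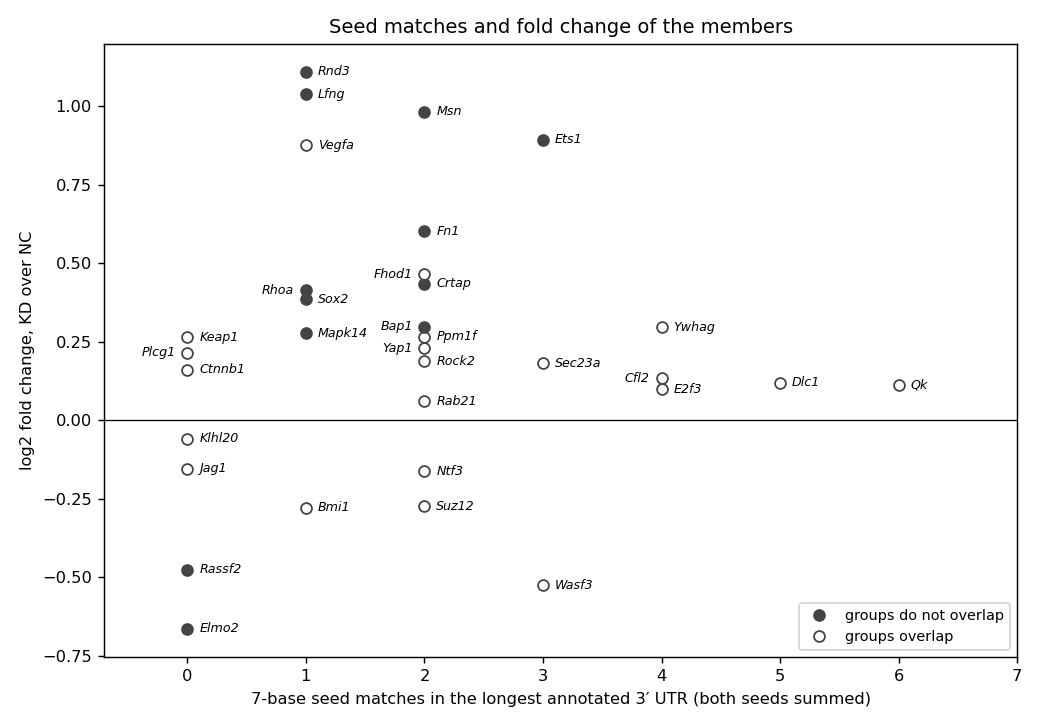
Log2 fold change of KD over NC (y axis) against the number of 7-base seed matches of both types in the longest annotated 3′ UTR (x axis) for the 33 members; filled points mark members whose KD and NC libraries do not overlap. Members with 1 to 3 matches span -0.53 to 1.11, those with 4 or more lie between 0.10 and 0.30, and the 7 with none lie between -0.67 and 0.26. Rnd3, drawn at 1 match, had 4 over all its annotated 3′ UTRs.

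Other genes described as miR-200 targets, a list of 23 that includes receptors, methyltransferases and matrix enzymes, were divided in direction. Of these, 11 had a log2 fold change above 0 and 12 below, with a median of -0.12, and none passed the edgeR test after adjustment. KD lay wholly above NC for 7 and wholly below for 3, beside 15.3% and 18.6% of all tested genes. The smallest p-values belonged to Dnmt3a, a DNA methyltransferase (51.9 ± 11.7 CPM in KD against 87.0 ± 9.32 in NC, SD, n = 3 each), Lepr, the leptin receptor (19.1 ± 6.05 against 8.63 ± 2.33), Mmp16, a membrane protease (2.94 ± 1.72 against 9.25 ± 1.77), Flt1, a VEGF receptor that is also in the endothelial marker list (40.02 ± 7.58 against 26.9 ± 4.07), Sh3pxd2a, a scaffold of podosomes (121 ± 11.9 against 168 ± 22.9), and Marcks, an actin-binding substrate of protein kinase C (167 ± 36.5 against 115 ± 3.04). The family's classic targets differed from each other: Zeb2 stood at 58.6, 37.8 and 51.1 CPM in KD and 19.1, 25.6 and 22.2 in NC, while Zeb1 stood at 25.3, 23.9 and 21.8 against 22.7, 22.9 and 20.2. The log2 fold change of Zeb2, 1.14 (SE 0.21), was larger than that of any of the 33 members, and it was not tested against theirs.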

How the data were processed

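The authors deposited 1 table with raw counts per gene and library. Per the file headers it also holds the authors' normalised mean, a signal column that was recomputed from the counts to within 0.0142%, their log2 fold change and their unadjusted p-value. The submitters' processing notes name DESeq, DESeq2, HTSeq 0.6.0, TopHat2, HISAT2 2.1.0 and Bowtie2 2.2.3 and the build GRCm38, without saying what each did. Annotation release and strand setting: not given in the sources used here. Without a strand setting, a gene and an overlapping or antisense partner may share reads.

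Counts were tested with edgeR 4.0.16 in R 4.3.3: default filter on low counts, TMM factors, quasi-likelihood test of KD against NC over 6 libraries, no covariate, two-sided, Benjamini-Hochberg adjustment over 18444 genes, threshold 0.05. Each standard error was derived from the log2 fold change and its F statistic. Total counts per library ran from 15704791 to 17618540. Alternatives used DESeq2 1.42.0 (8501 genes without an adjusted p stay out of its counts), limma-voom 3.58.1, other scalings and filters, and fewer libraries. The script was tested on simulated counts with known changes, as a check of the code. How often changes of the members' size would be found in these libraries is not given here. The UTR of a gene was the longest after an annotated stop codon in GENCODE M21, and gene positions and exon lengths are from the same release. All 33 members are named. Values in every library are given for those with the smallest p and for others that an account turns on, and of the other targets the 6 with the smallest p are named. The members and lists were chosen with earlier results of these data known.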

Additional observations from a re-analysis of the deposited data

How the results depend on the processing

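Over 15 alternatives, 25 of the 33 members kept the sign of their log2 fold change, and none was called under any of them. DESeq2 called 134 genes higher and 266 lower over the whole table, and edgeR without KD-2 and NC-1 called 3 genes higher, none of them a member. Zeb2 passed in DESeq2 (log2 fold change 1.12, adjusted p = 0.0094), while its adjusted p under the other settings ran from 0.17 to 0.48. Scaling by total counts alone lowered the median of all genes from 0.01 to -0.14 and that of the members to 0.063, and turned E2f3 (-0.042), Qk (-0.030), Cfl2 (-0.019), Dlc1 (-0.045), Rab21 (-0.090) and Zeb1 (-0.045). KD lay wholly above NC there for 8 members (9.74% of all genes tested) and wholly below for 3 (22.4%). Without KD-2 and NC-1, Jag1 (0.17), Dlc1 (-0.0063) and Klhl20 (0.073) turned. The causes were not tested. Leaving out each library in turn gave E2f3 -0.065 to 0.23, Qk -0.13 to 0.26, Jag1 -0.29 to 0.0076, Rock2 -0.0012 to 0.29, Klhl20 -0.16 to 0.070 and Rab21 -0.029 to 0.14. The members' median then ran from 0.16 to 0.28. Members wholly below NC then numbered 2 to 5 (5 without NC-3), beside 19.3% to 28.8% of all genes tested, and those wholly above 11 to 15 (15 without KD-3 or NC-3), beside 17.8% to 26.5%, with fewer libraries to separate. With the replicate number as a block, 0 members were called and their median was 0.22. Same-numbered libraries did not all deviate together (correlations 0.32, 0.11 and -0.26), so the numbers were not taken as pairs.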

Other observations

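Counting matches over all annotated 3′ UTRs of a gene raised the matches in the members from 61 to 69 and the members with a match from 26 to 27. Rnd3 then had 4 matches, 2 of each type, against 1 in its longest UTR, Qk had 9 against 6, and Plcg1 had 1 against 0. These transcripts were not told apart in the counts.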
